A study of Mus musculus with 11 samples.

Results

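Expression of the ACTH receptor and of the cAMP pathway behind it was described in mouse adrenal glands through 10 genes chosen by name: Mc2r, Mrap, Pde8a, Pde8b, Prkar1a, Prkar2a, Prkar2b, Prkaca, Prkacb and Creb1. All 10 were found among the 23337 gene symbols of the count table, and all 10 passed the filter on low counts, as 14139 genes did. The glands came from male mice of the athymic strain Hsd:Athymic Nude-Foxn1nu, 5 samples from intact animals and 6 from orchiectomised animals (ORX, testes removed). Every mouse, controls included, had been inoculated with VCaP cells, a human prostate cancer line, at about 5 to 6 weeks of age (week 0), was assigned to its group at week 7 and was sampled at week 15. Any part that tumour growth had in a difference between the groups cannot be told apart from the group. The comparison, ORX against intact, asks how the adrenal gland differs where testicular hormones have been withdrawn.

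ACTH from the pituitary acts on cortical cells through the melanocortin 2 receptor, which reaches the cell surface only with its accessory protein MRAP. The receptor couples to Gs, adenylyl cyclases then make cAMP, and cAMP releases the catalytic subunits of protein kinase A (PKA) from their regulatory subunits. The freed kinase drives cholesterol mobilisation and phosphorylates transcription factors such as CREB. Phosphodiesterases of the PDE8 family break cAMP down at low concentrations and thereby restrain steroid output. In humans, inactivating changes of PRKAR1A cause a nodular adrenal hyperplasia, and loss of MC2R or MRAP causes glucocorticoid deficiency.

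Library totals ranged from 11368447 to 15029582 counts. The samples carried the adrenal label in their transcripts: the summed level of 7 zona fasciculata markers, Mc2r among them, was 32260 to 78113 CPM in the intact group and 59280 to 89876 CPM in ORX, whereas 5 kidney genes together reached at most 1.37 CPM, 1 of them at 0 in every library. The 4 liver genes summed to 1.84 to 40.5 CPM in intact and to 2.21 to 238 CPM in ORX, highest in ORX 6. CPM are counts scaled to the library size after TMM normalisation. A pair of libraries stood apart. ORX 6 deviated from the other ORX libraries by 0.72 (median, log2 CPM) over the shortest of 10 bins of transcript length and by -0.67 over the longest. Intact 3 had the highest summed level of 12 fat markers (21175 CPM) and the lowest fasciculata sum. In whole glands, fewer cells of a type and less RNA per cell cannot be told apart.

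Of the 10 genes, Mc2r and Pde8b rose and Prkar2b fell in ORX, and 7 did not pass the test. Differences were tested in edgeR by the quasi-likelihood F test, and p was adjusted across every gene tested by Benjamini-Hochberg, with a threshold of 0.05. Over all tested genes 878 (6.21%) passed, 3.03% as higher and 3.18% as lower in ORX. The 3 genes that passed were also the 3 in which the groups did not overlap, which held for 5.28% of all tested genes (2.92% higher and 2.36% lower in ORX). Of the 10 log2 fold changes 5 were above and 5 below 0, with a median of -0.08, against 0.01 over all tested genes.

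**Figure D1:**
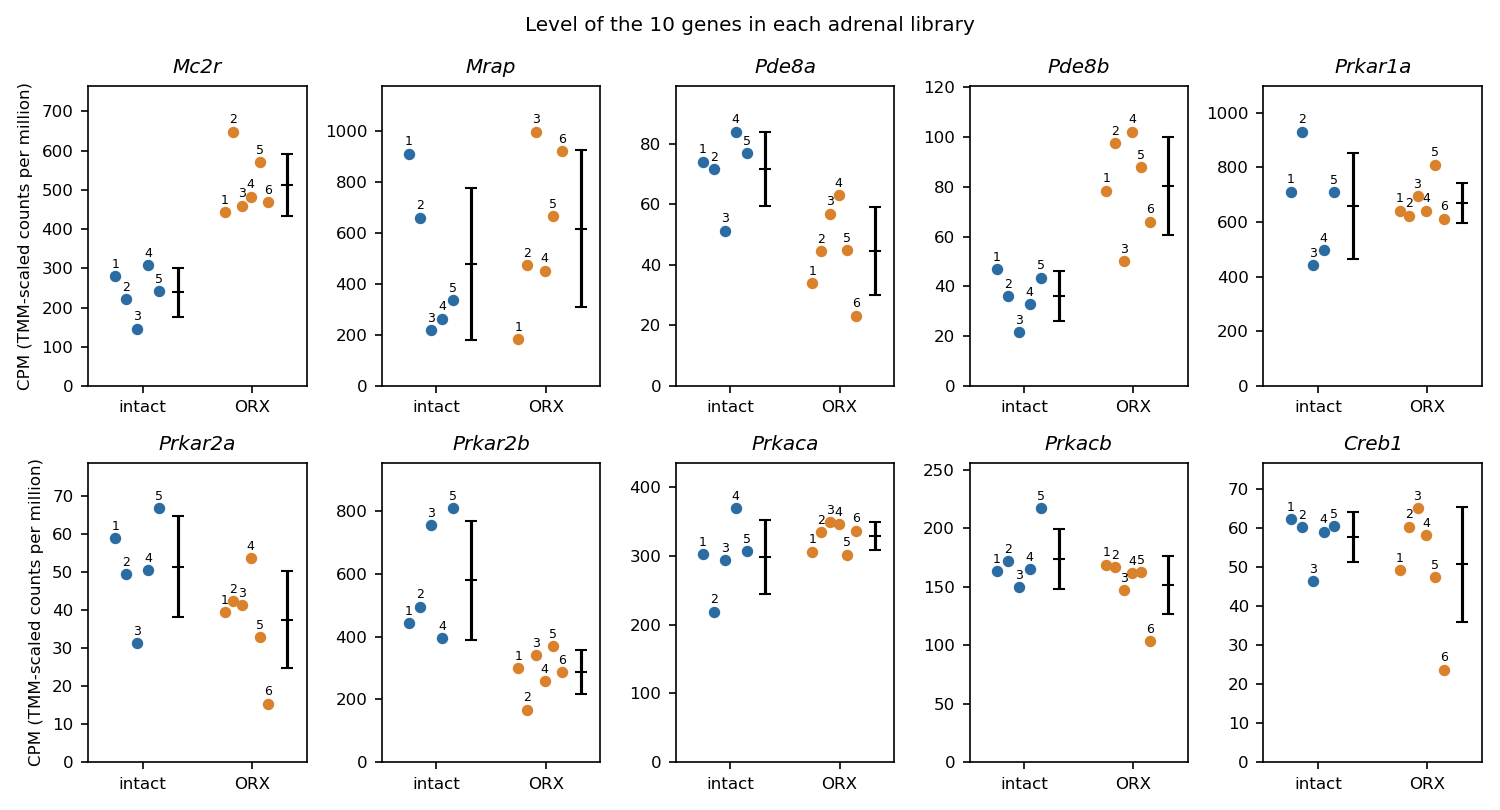
Each panel is 1 gene and each point 1 library, labelled with its sample number; the vertical axis is the level in TMM-scaled CPM from 0, and the bar beside the points is the mean with the SD (intact, blue, n = 5; ORX, orange, n = 6). Mc2r and Pde8b lie higher and Prkar2b lower in every ORX library than in every intact library, Mrap spreads widely in both groups, and ORX 6 is the lowest library for Pde8a, Prkar2a, Prkacb and Creb1.

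Set against the length of their exons, the 10 genes covered a wide span of levels. In the intact group Mrap had the highest level per length, 302 ± 188 RPKM (SD, n = 5; CPM per kilobase of merged exons). It was followed by Prkar2b at 158 ± 51.7, Prkar1a at 152 ± 45.1, Mc2r at 147 ± 38.2 and Prkaca at 119.8 ± 21.5 RPKM. The ranges of neighbours in this upper group overlapped, so their order is not fixed by these libraries, and with the longest transcript as the length Prkar1a came before Prkar2b. A gap separated them from Prkacb at 19.8 ± 2.93 and Pde8a at 17.7 ± 3.03 RPKM, whose ranges overlapped. Prkar2a at 8.06 ± 2.08, Pde8b at 6.15 ± 1.68 and Creb1 at 4.20 ± 0.468 RPKM were lowest, again with overlapping neighbours.

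In ORX the order differed for the genes that had passed the test. Mrap at 389 ± 195 and Mc2r at 314 ± 49.1 RPKM (SD, n = 6) led, with overlapping ranges, and the lowest Mc2r library (272 RPKM) lay above the highest Prkar1a library (188 RPKM). Prkar1a was at 155 ± 17.1, Prkaca at 132 ± 8.14 and Prkar2b at 78.6 ± 19.3 RPKM, and these 3 did not overlap one another. Pde8b, at 13.7 ± 3.37 RPKM, stood ahead of Pde8a, at 11.0 ± 3.60 RPKM, with overlapping ranges. Creb1 was the lowest in both groups, at 3.68 ± 1.08 RPKM in ORX.

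Mc2r, the ACTH receptor itself, had 279, 221, 146, 309 and 242 CPM in intact 1 to 5. In ORX its lowest library had 444, its median was 476 and its highest library, ORX 2, had 648 CPM. The lowest intact library was intact 3 and no ORX library came down to the intact range. The mean rose from 239 ± 62.3 to 512 ± 80.1 CPM, a log2 fold change of 1.10 ± 0.19 (SE; 2.14-fold; edgeR adjusted p = 0.0053). The call held without any 1 of the 11 libraries (log2 0.95 to 1.19; edgeR adjusted p up to 0.0195). With the fat marker score (mean log2 CPM) as a covariate it also held, and with the score of the medulla markers as a covariate it did not (log2 1.21; edgeR adjusted p = 0.135). The 3 X-zone markers, of the juvenile inner cortex, moved with Mc2r between the groups, from 28.7 to 40.2 CPM in the intact libraries to 831 to 2911 CPM in ORX. Within intact their sum was highest in intact 4 and lowest in intact 3, as Mc2r was. Within ORX it was highest in ORX 1, the ORX library lowest in Mc2r, and ORX 2, highest in Mc2r, had 1523 CPM. The part of the X-zone in the Mc2r level was not tested.

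Mrap, which encodes the accessory protein that carries the receptor to the membrane (chromosome 16, 90738207 to 90749785, GRCm38, plus strand), had 909.8, 659, 219, 263 and 335 CPM in intact 1 to 5. In ORX it ran from 184 CPM in ORX 1 over a median of 569 to 996 CPM in ORX 3. Its level differed 5.4-fold between the lowest and the highest library, the widest such span of the 10 genes, and the spread lay within the groups. The longest Mrap transcript, of 1203 bases, is in the shortest of the 10 length bins, where ORX 6 was high as a whole. In ORX 6 Mrap had 921 CPM and deviated by 0.93 (log2 CPM) from the other ORX libraries. The part of transcript length in the spread was not tested. The means were 477 ± 297 and 615 ± 308 CPM (log2 0.37 ± 0.44; edgeR adjusted p = 0.665; 95% interval of the difference -0.58 to 1.31). Changes of up to 0.58 downward and 1.31 upward on the log2 scale thus stay within that interval. With the medulla score as a covariate the Mrap value was 2.29, outside that interval, and passed (edgeR adjusted p = 0.00676). The summed medulla markers ranked the 5 intact libraries as Mrap did, from 11949.8 CPM in intact 3 to 30555 CPM in intact 1. In ORX they were likewise lowest in ORX 1 (6399.5 CPM) and highest in ORX 3 (16691 CPM), and their part in the Mrap level was not tested further. Mrap is also known as a gene of fat cells. The library with the highest fat marker sum, intact 3, was among the lowest for Mrap, while ORX 3, with the next highest sum (20567 CPM), had the highest Mrap level. Per kilobase Mrap stood at 3.36, 3.08, 1.55, 0.880 and 1.43 times Mc2r in intact 1 to 5 and at 0.429 to 2.23 times in ORX. These ranges overlapped, and the log2 ratio differed by -0.74 (exact permutation p = 0.184, also after adjustment). Mrap2, the related accessory protein, was close to absent, at 0.511 ± 0.154 CPM in intact and 0.899 ± 0.197 CPM in ORX (log2 0.82 ± 0.30; edgeR adjusted p = 0.126).

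**Figure D2:**
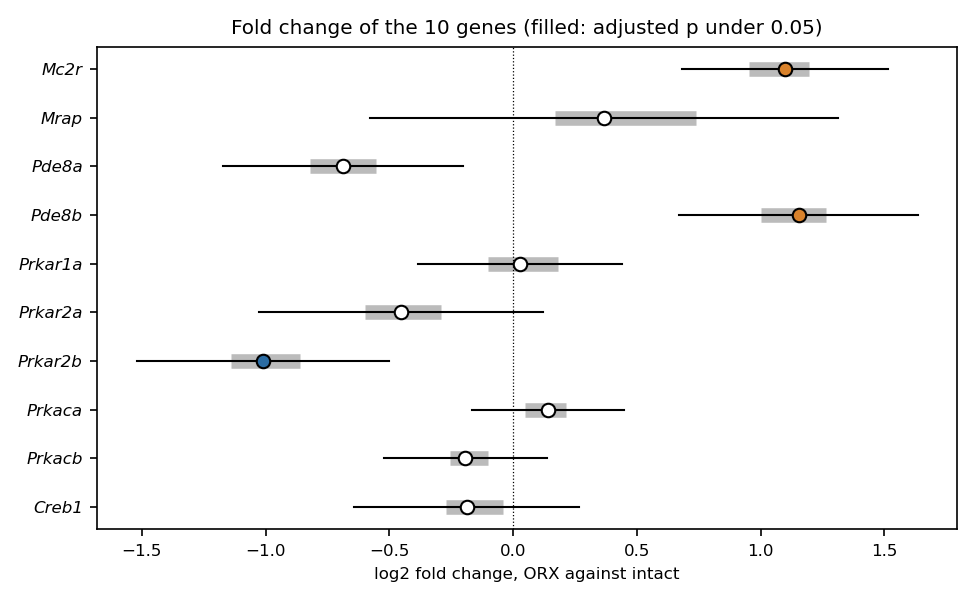
Each row is 1 of the 10 genes and the horizontal axis is its log2 fold change, ORX against intact; the circle is the estimate (filled where the adjusted p was under 0.05), the line its 95% interval and the grey band the range of estimates when 1 library at a time was left out. Mc2r and Pde8b lie above 0 and Prkar2b below 0 with bands away from 0, and the interval of Pde8a also lies below 0 although it did not pass the adjustment.

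Among the phosphodiesterases, Pde8b rose and its close relative Pde8a did not pass. Pde8b (chromosome 13, 95024454 to 95250336, GRCm38, minus strand), in which human variants are known from adrenal hyperplasia, had 46.8, 35.9, 21.5, 32.9 and 43.5 CPM in intact 1 to 5. In ORX its lowest library was ORX 3 with 50.1, the median 83.2 and the highest ORX 4 with 102 CPM. ORX 3 was thus close to intact 1, and the other ORX libraries were clearly apart. The mean rose from 36.1 ± 9.90 CPM to 80.4 ± 19.8 CPM, or 2.22-fold (log2 1.15 ± 0.22; adjusted p = 0.00951 in edgeR). The call held whichever library was left out (adjusted p at most 0.0269). It missed the threshold with the fat score as a covariate (log2 0.79; edgeR adjusted p = 0.0518) and with the medulla score as a covariate (log2 1.26; edgeR adjusted p = 0.224). Its exons share 447 bases (7.6%) with Gm48420 on the opposite strand, so without a stated strand setting some reads may belong to that gene.

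Since Pde8b was one of the genes that rose, the stretch around its first listed start is shown (RefSeq, GRCm38.p6, chr13:95250287-95250586, minus strand), from 250 bases before to 50 bases after the start. It was searched for the full cAMP response element TGACGTCA, its half-site TGACG and the SF-1 motif AAGGTCA on both strands. None of them was found in this window, so no letter is in capitals. Pde8b has 5 listed starts, and the window of another start, chr13:95223001-95223300, held a half-site. The full element contains the half-site on each strand.
Pde8b: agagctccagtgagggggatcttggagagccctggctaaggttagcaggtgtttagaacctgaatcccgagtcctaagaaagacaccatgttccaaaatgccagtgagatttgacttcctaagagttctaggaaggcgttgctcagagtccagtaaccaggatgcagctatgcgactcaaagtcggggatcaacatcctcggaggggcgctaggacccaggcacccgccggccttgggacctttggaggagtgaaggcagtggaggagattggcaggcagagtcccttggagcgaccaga

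Pde8a, the other high-affinity phosphodiesterase of this family (chromosome 7, 81213596 to 81334533, plus strand), had 74.0, 71.5, 51.3, 83.9 and 76.9 CPM in intact 1 to 5. In ORX it ran from 23.2 CPM in ORX 6 over a median of 44.7 to 63.0 CPM in ORX 4. Intact 3 was the only intact library within the ORX range. The mean was 71.5 ± 12.2 CPM in intact and 44.4 ± 14.6 CPM in ORX (log2 -0.69 ± 0.23; edgeR adjusted p = 0.087), so it missed the threshold. It passed with DESeq2 (adjusted p = 0.0451) and with limma voom with sample weights (adjusted p = 0.035). Over all genes 1630 and 2056 passed with these methods, against 878 in the main test. Without ORX 6 the Pde8a value was -0.55 (edgeR adjusted p = 0.0876).

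The pair was compared within each library as the ratio of counts per kilobase, which does not depend on library scaling. Per kilobase, Pde8b stood at 0.435, 0.346, 0.289, 0.270 and 0.389 of Pde8a in intact 1 to 5. In ORX the ratio was 0.605 in ORX 3, 1.12 in ORX 4, 1.35 in ORX 5, 1.51 in ORX 2, 1.59 in ORX 1 and 1.95 in ORX 6. In 5 of the 6 ORX libraries Pde8b thus exceeded Pde8a per length, which it did in none of the intact libraries. The mean ratio differed 3.74-fold (1.90 on the log2 scale; exact permutation test over 462 divisions of the samples, two-sided, p = 0.00433, 0.0108 adjusted over the 5 ratios examined). Both genes have longest transcripts of like length (3802 and 4235 bases), and leaving out ORX 6 or any other library left the difference between 1.78 and 2.12.

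**Figure D3:**
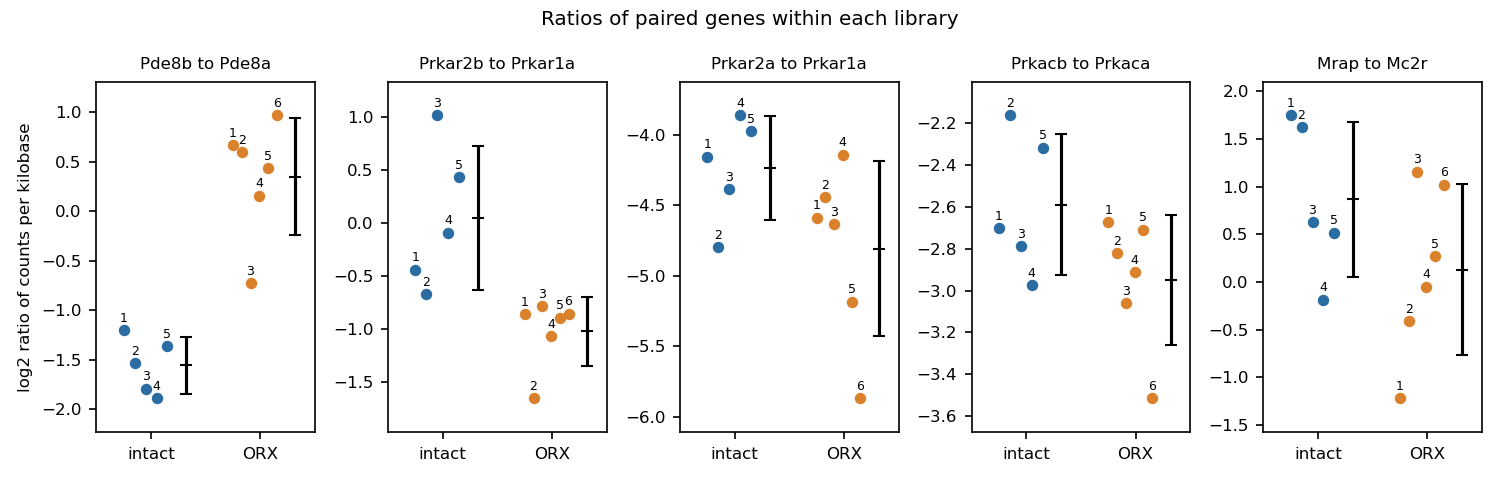
Each panel is the log2 ratio of counts per kilobase of 2 genes within a library (vertical axis; points labelled with the sample number, bars the mean and SD, intact n = 5, ORX n = 6). The Pde8b to Pde8a ratio is higher and the Prkar2b to Prkar1a ratio lower in every ORX library than in every intact library, and the groups overlap in the other 3 panels.

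The regulatory subunits of PKA differed in how they moved. Prkar2b encodes the type II-beta subunit, which is abundant in fat and nervous tissue (chromosome 12, 31958476 to 32061296, minus strand), and it had 443, 495, 754, 394 and 807 CPM in intact 1 to 5. In ORX it ran from 168 CPM in ORX 2 over a median of 293 to 369 CPM in ORX 5. Intact 3 and 5 were far above the rest, and the lowest intact library, intact 4, stood just above the highest ORX library. The mean was 579 ± 189 CPM in intact and 287 ± 70.5 CPM in ORX, a fall of log2 -1.01 ± 0.24 (adjusted p = 0.0251 in edgeR). The call ended without intact 5 (log2 -0.86; edgeR adjusted p = 0.0751), without ORX 1 (adjusted p = 0.05002) or without ORX 4 (adjusted p = 0.0523).

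Markers of other cells moved with Prkar2b only in part. The fat markers summed to 7903 to 21175 CPM in intact and to 4979 to 20567 CPM in ORX, and intact 3 and 5, the libraries highest in Prkar2b, were the intact libraries highest in this sum. In ORX the fat sum was highest in ORX 3, which had 341 CPM of Prkar2b. ORX 5, the ORX library highest in Prkar2b at 369 CPM, had a fat sum of 7197 CPM. With the fat score as a covariate the Prkar2b difference was -0.74 (edgeR adjusted p = 0.100). The 12 markers of the medulla, the catecholamine-producing core, summed to 11949.8 to 30555 CPM in intact and to 6399.5 to 16691 CPM in ORX. Within intact this sum was highest in intact 1 and lowest in intact 3, which had 443 and 754 CPM of Prkar2b. With the medulla score as a covariate the Prkar2b difference was -1.10 (edgeR adjusted p = 0.238).

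The promoter window of Prkar2b is shown because this gene also passed, as lower in ORX (RefSeq, GRCm38.p6, chr12:32061228-32061527, minus strand). None of the 3 motifs was found in it.
Prkar2b: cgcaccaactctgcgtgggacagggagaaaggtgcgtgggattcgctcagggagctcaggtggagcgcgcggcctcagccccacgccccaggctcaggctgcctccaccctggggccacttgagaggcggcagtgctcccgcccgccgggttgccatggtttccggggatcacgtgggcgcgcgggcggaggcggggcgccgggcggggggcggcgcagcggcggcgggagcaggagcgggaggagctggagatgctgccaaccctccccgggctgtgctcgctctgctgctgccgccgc

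Prkar1a, the type I-alpha subunit (chromosome 11, 109649405 to 109669656, plus strand), had 711, 931, 443, 497 and 709 CPM in intact 1 to 5. In ORX it lay between 613 CPM in ORX 6 and 810.3 CPM in ORX 5, with a median of 642 CPM. The ORX libraries thus sat inside the intact range. The means were 658 ± 195 and 671 ± 74.0 CPM (log2 0.03 ± 0.19; edgeR adjusted p = 0.952; 95% interval -0.39 to 0.44). Prkar2a, the type II-alpha subunit (chromosome 9, 108689314 to 108750436, plus strand), went from 51.4 ± 13.3 CPM, with a range of 31.3 to 66.8, to 37.5 ± 12.7 CPM, with a range of 15.5 to 53.7 (log2 -0.45 ± 0.27; edgeR adjusted p = 0.337). Its lowest level was that of ORX 6, and its longest transcript has 4965 bases.

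Of the 21 promoter windows that RefSeq lists for 8 of the 10 genes, 2 held the full element TGACGTCA, both of Prkar1a. These 2 windows overlap and hold the same element, so a single site is counted in both. That element is in 1.79% of 32851 windows of the same length over all listed genes. The window of Prkar1a in which the element begins 49 bases before the start is chr11:109650699-109650998 (GRCm38.p6, plus strand), with the element in capitals.
Prkar1a: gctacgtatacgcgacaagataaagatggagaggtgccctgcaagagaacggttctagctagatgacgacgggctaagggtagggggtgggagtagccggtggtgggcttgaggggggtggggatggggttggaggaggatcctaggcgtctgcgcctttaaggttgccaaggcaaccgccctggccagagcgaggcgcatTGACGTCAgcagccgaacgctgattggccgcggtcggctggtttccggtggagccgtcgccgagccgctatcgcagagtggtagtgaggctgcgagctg
The half-site was found in 8 of the 21 windows and in 20.8% of all windows, and the SF-1 motif in none of the 21 and in 4.72% of all windows. Both Prkar1a windows with the full element are among the 8. Windows of a gene can overlap, so these shares do not count separate sites. A match here is a run of letters and not a measured binding site.

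Prkar2b was compared with Prkar1a within each library. Per kilobase it stood at 0.737, 0.629, 2.02, 0.939 and 1.35 of Prkar1a in intact 1 to 5, and at 0.318 in ORX 2 to 0.582 in ORX 3. The highest ORX ratio was below the lowest intact ratio. The mean difference was -1.07 on the log2 scale (exact permutation test, two-sided, p = 0.00216, the smallest this design allows; 0.0108 adjusted over the 5 ratios), and it stayed between -1.25 and -0.83 when 1 library was left out. Within each group the Prkar2b to Prkar1a ratio was highest in the library with the highest fat marker sum (intact 3 and ORX 3). It was lowest in the library with the lowest sum (intact 2 and ORX 2). A ratio within a library removes scaling but not tissue makeup, whose part was not tested. The Prkar2a to Prkar1a ratio differed by -0.58 on the log2 scale (exact permutation p = 0.0952, adjusted 0.138) and did not pass.

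Prkaca encodes the main catalytic subunit, which in humans carries activating changes in cortisol-producing adenomas (chromosome 8, 83972993 to 83996443, plus strand). It had 302, 219, 293, 369 and 307 CPM in intact 1 to 5, and 301 to 349 CPM with a median of 335 in ORX. It was the steadiest of the 10 genes in ORX, with a coefficient of variation of 6.16%. The difference was log2 0.14 ± 0.14 (edgeR adjusted p = 0.596; 95% interval -0.16 to 0.45). Prkacb, the second catalytic gene (chromosome 3, 146729574 to 146812990, minus strand), had 174 ± 25.7 CPM in intact and 152 ± 24.8 CPM in ORX (log2 -0.19 ± 0.15; edgeR adjusted p = 0.485; 95% interval -0.52 to 0.14). The groups overlapped for both catalytic genes. The Prkacb to Prkaca ratio differed by -0.36 on the log2 scale (exact permutation p = 0.110, adjusted 0.138), with ORX 6 lowest.

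Per length, Prkar1a, Prkar2a and Prkar2b together had 319 ± 62.9 RPKM in intact and 239.6 ± 33.6 RPKM in ORX, and the 2 catalytic genes 139.6 ± 21.6 and 149 ± 7.62 RPKM. This regulatory sum stood at 1.38 to 3.34 times the catalytic sum in the intact libraries and at 1.28 to 2.10 times in ORX, with overlap. Within the regulatory sum Prkar1a took 32.6% to 60.1% in intact and 61.7% to 73.3% in ORX. Prkar2b took 37.8% to 65.8% in intact and 23.3% to 35.9% in ORX, so that the groups did not overlap for either share. Prkar1b, the remaining regulatory gene and not among the 10, had 24.0 to 66.5 RPKM in intact and 16.2 to 29.4 RPKM in ORX. With Prkar1b in the sum, the Prkar1a share was 30.3% to 50.7% in intact and 56.2% to 67.7% in ORX, still without overlap. The Prkar2b share was then 31.9% to 61.1% in intact and 21.5% to 33.1% in ORX, and the groups overlapped. Prkaca supplied 81.7% to 88.7% of the catalytic sum in intact and 86.4% to 92.0% in ORX. These shares follow from the levels above and were given no test of their own.

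**Figure D4:**
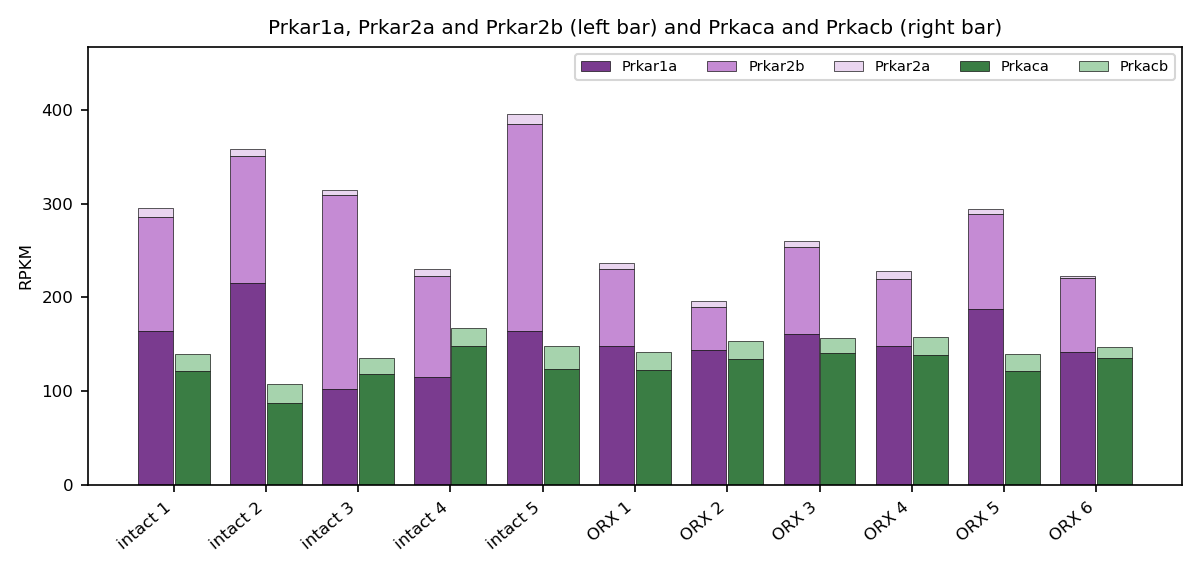
For each library the left bar stacks the regulatory genes Prkar1a, Prkar2a and Prkar2b, without Prkar1b, and the right bar the catalytic genes Prkaca and Prkacb (vertical axis, RPKM from 0). The Prkar2b segment is smaller in the ORX libraries (45.9 to 101 RPKM) than in the intact ones (108 to 221 RPKM), while the catalytic bar is 107.5 to 167 RPKM in all libraries.

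Creb1, the cAMP-responsive transcription factor (chromosome 1, 64532645 to 64604548, plus strand), had 62.3, 60.2, 46.4, 59.0 and 60.5 CPM in intact 1 to 5. In ORX it ran from 23.8 CPM in ORX 6 over a median of 53.7 to 65.0 CPM in ORX 3. Apart from ORX 6 the libraries of both groups filled the same range. The difference was log2 -0.19 ± 0.21 (edgeR adjusted p = 0.642). Its longest transcript, of 8364 bases, is in the longest of the 10 length bins, where ORX 6 was low as a whole.

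Reads could hardly be split between these genes and near copies. Of stretches of 50 bases, 7 of the 10 genes shared none with any other annotated gene, Prkaca shared 0.328% and Creb1 0.244%, and Pde8b shared 6.43%, with Gm48420 as the partner. Prkaca and Prkacb, and Pde8a and Pde8b, shared no such stretch with each other. The read length is not given in the sources used here.

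Beyond the 10 genes, 11 lists by role held 119 genes of the pathway, of which 106 were tested. Of these 106, 6 rose and 8 fell, or 13.2% against 6.21% of all tested genes, with a median log2 fold change of -0.20. The lists were chosen with earlier results of these data known, so that this share describes the lists and is no test of them.

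Among the upstream steps 2 adenylyl cyclases fell, no G protein gene passed, and other receptors moved in both directions. None of 12 G protein genes passed, and Gnas, which encodes Gs-alpha, was at log2 0.02 ± 0.16 (2568 ± 228 and 2606 ± 396 CPM; edgeR adjusted p = 0.957). Of 9 tested adenylyl cyclase genes Adcy4 and Adcy7 fell and 7 did not pass, and all 9 estimates were below 0 (median log2 -0.63). Adcy4, a cyclase isoform known from endothelium, had 27.6 ± 3.33 CPM in intact and 12.4 ± 4.003 CPM in ORX (log2 -1.15 ± 0.22; adjusted p = 0.00803 in edgeR). Adcy7 had 49.6 ± 4.22 CPM in intact and 25.8 ± 6.81 CPM in ORX (log2 -0.94 ± 0.19; adjusted p = 0.011 in edgeR). In neither gene did the groups overlap. The summed level of 8 endothelial markers was 678 to 1064 CPM in intact and 654 to 872 CPM in ORX, and its part in these falls was not tested. Of 12 tested receptor genes of the melanocortin family or coupled to Gs, Lhcgr, the receptor of luteinising hormone, rose, with 1.02 ± 1.17 CPM in intact and 20.1 ± 12.9 CPM in ORX (log2 4.32 ± 0.84; edgeR adjusted p = 0.00946; limma voom with sample weights 0.0513). ORX 1, at 0.718 CPM, lay within the intact range of 0.251 to 3.06 CPM, and the other ORX libraries had at least 12.3 CPM. Without intact 2 the value was 5.26. Adcyap1r1, the PACAP receptor known from chromaffin cells, fell, with means of 87.7 ± 18.03 CPM in intact and 51.3 ± 6.06 CPM in ORX (log2 -0.77 ± 0.15; adjusted p = 0.00949 in edgeR). With the transcript length trend removed it did not pass (adjusted p = 0.0601 in edgeR).

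The enzymes that destroy cAMP and the sensors that bind it changed in both directions. Of 14 tested phosphodiesterases Pde7a and Pde8b rose, Pde10a fell and 11 did not pass. Pde7a, a cAMP-specific phosphodiesterase, had 37.6, 24.8, 25.2, 28.2 and 23.3 CPM in intact 1 to 5 and 65.2 to 112 CPM in ORX, without overlap. It rose 2.94-fold (log2 1.56 ± 0.18; edgeR adjusted p = 0.00036). Pde10a fell (log2 -2.01 ± 0.54; edgeR adjusted p = 0.0434), but intact 3 and 4, at 31.1 and 27.0 CPM, lay within the ORX range of 21.6 to 60.9 CPM, against 198 to 253 CPM in intact 1, 2 and 5. Leaving out 1 library ended the Pde10a call for 8 of the 11 (adjusted p at most 0.115 in edgeR).

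Of the Epac genes, which encode cAMP-activated exchange factors for Rap that act beside PKA, both passed, in opposite directions. Rapgef4, which encodes Epac2, had 142, 132, 129.7, 240.002 and 103 CPM in intact 1 to 5. In ORX its lowest library, ORX 6, had 417 and its highest, ORX 2, had 1468 CPM, so that the groups were well apart. It rose 6.58-fold (log2 2.72 ± 0.32; edgeR adjusted p = 0.00036). Rapgef3, which encodes Epac1, fell, from a mean of 28.8 ± 4.38 CPM in intact to 19.4 ± 2.52 CPM in ORX (log2 -0.57 ± 0.15; adjusted p = 0.0405 in edgeR). For 8 of the 11 libraries, leaving that library out ended the call (adjusted p at most 0.103).

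Of 9 PKA subunit and inhibitor genes Prkar2b and Prkar1b fell and 7 did not pass. Prkar1b, a regulatory subunit known from neurons, had 177 ± 77.3 CPM in intact and 79.6 ± 21.1 CPM in ORX (log2 -1.15 ± 0.28; adjusted p = 0.0305 in edgeR). This call ended when any of 7 libraries was left out singly (adjusted p at most 0.0893). Of 12 anchoring proteins Akap1, which holds PKA at mitochondria, fell, with 193 ± 34.6 CPM in intact and 122 ± 18.6 CPM in ORX (log2 -0.65 ± 0.16; adjusted p = 0.0295 in edgeR). It missed the threshold when any of 4 libraries was left out singly (adjusted p at most 0.081). None of 14 CREB family and coactivator genes and none of 8 genes of salt-inducible kinases and phosphatases passed. Of 15 genes known to respond to cAMP acutely, Nr0b1 rose 8.89-fold, from 3.61 ± 1.41 to 32.1 ± 8.24 CPM (edgeR adjusted p = 4.1e-05). It encodes DAX-1, a repressor of steroidogenic transcription. This list does not give the direction in which each gene responds, so the rise is no measure of cAMP signalling. The other 14 of the list did not pass, among them Star at log2 0.06 ± 0.28 and Nr4a1 at -0.51 ± 0.63 (edgeR adjusted p = 0.93 and 0.676). Of the 15 estimates 11 were below 0 and 4 above, with a median log2 of -0.49. The lowest were Akr1b7 at -2.29 ± 0.72 and Pde4d at -1.29 ± 0.36 (edgeR adjusted p = 0.0762 and 0.0517). With the medulla score as a covariate, an alternative chosen after seeing the data, Nr0b1 and Lhcgr passed and the other 12 of the 14 pathway genes that had passed did not. Under it the log2 values of Pde7a (1.48), Adcy7 (-1.14) and Akap1 (-0.95) were close to or larger than those given above, whereas those of Prkar1b (-0.18) and Pde10a (-0.28) came close to 0. Adcy4 lay between, at -0.61 (edgeR adjusted p = 0.36) against -1.15 in the main test.

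**Figure D5:**
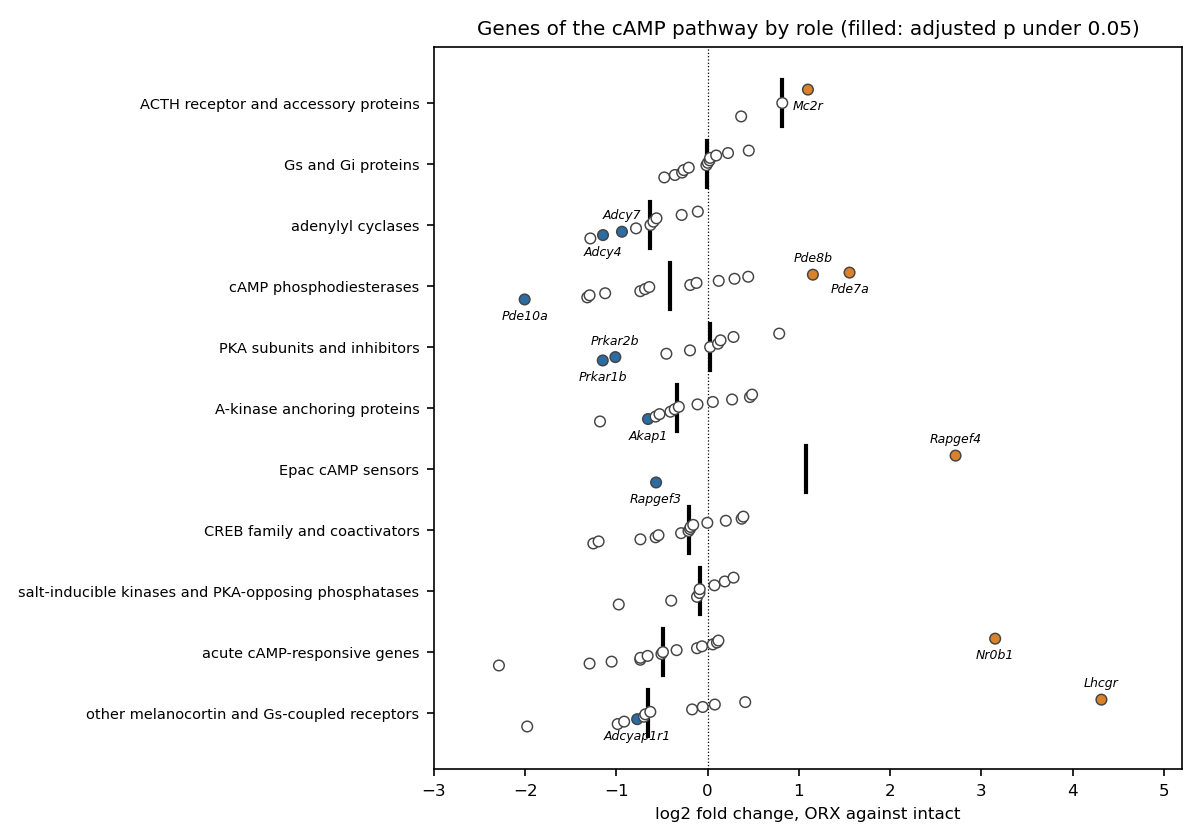
Each circle is 1 tested gene in 1 of 11 lists by role (rows), placed along the horizontal axis by its ORX against intact log2 fold change, and filled orange or blue where it passed as higher or lower; the black bar is the list's median. Named genes are those that passed, from Pde10a at -2.01 to Lhcgr at 4.32, and the median of the adenylyl cyclases is -0.63.

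The genes that followed Mc2r and Pde8b most closely from library to library were sought among 10837 genes by Pearson's r of log2 CPM after each group's mean was subtracted, over the 11 libraries. For Mc2r these were Ap1ar (r = 0.91), Polr2m (0.91), Cspg5 (0.90) and Dazap2 (0.89). Cspg5 and Dazap2 also rose in ORX (log2 0.76 ± 0.19 and 0.55 ± 0.12; edgeR adjusted p = 0.0299 and 0.0156), and Ap1ar and Polr2m did not pass. For Pde8b they included Ppp4r1 (r = 0.94), Cyp2f2 (0.93) and Sept9 (0.93), of which Cyp2f2 rose in ORX (log2 5.13 ± 0.89; edgeR adjusted p = 0.00476). Mc2r and Pde8b had r = 0.67 with each other. Among 210 relations tested by permutation within groups, this one did not pass (exact permutation p = 0.0459, adjusted 0.459). All these values share the libraries, their scaling and their tissue makeup. The genes named beside Mc2r and Pde8b were picked as the highest of 10837 over only 11 libraries. High values can arise by chance in so wide a search, and none was tested. Prkar2a, Creb1, Pde8a and Prkacb, whose lowest library was ORX 6 in each case, had r of 0.63 to 0.92 among themselves. By rank the values were lower, with Spearman's rho of 0.345 (Prkacb and Creb1) to 0.827 (Prkar2a and Creb1).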

How the data were processed

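Gene-level RNA sequencing counts of whole adrenal glands were analysed in 11 libraries. The deposited values are raw counts per gene symbol; per the submitters' processing notes bcl2fastq 1.8.4, Subread 1.5.1 and the build mm10 were used, while neither annotation nor strand setting is stated there. The labels do not say that each sample was its own mouse, so the spread behind each p-value may be partly technical. Counts of genes kept by filterByExpr (minimum count 10) entered edgeR 4.0.16 (R 4.3.3) with TMM scaling and its quasi-likelihood F test, two-sided, on 14139 genes, with a threshold of 0.05 on the adjusted p. DESeq2 1.42.0 and limma 3.58.1 were alternatives. Scripts were tested on simulated data. Ratios within libraries were tested by exact permutation. Lengths and positions came from GENCODE for GRCm38, promoter windows from RefSeq (GRCm38.p6; 8 of 10 genes matched). Marker scores average the log2 CPM over a list.

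Same-numbered samples of the 2 groups had correlated deviations in no regular way, so the numbers were not used as pairs. All 10 genes are described, with pathway genes that passed (up to 4 a list, by p) and the 4 genes most like Mc2r and Pde8b, of which 1 is not reported here. The genes and lists were chosen with earlier results of these data known. With 11368447 to 15029582 counts a library and at least 205 counts for each of the 10 genes, counting error was small beside the spread between libraries, except for rare genes such as Mrap2.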

Additional observations from a re-analysis of the deposited data

Results flagged for a closer look

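Of 68 groups of values examined, 7 held a library whose gap to its nearest neighbour was large for the range of its group; chance gives about 1 in 20. Prkacb had 103.5 CPM in ORX 6, against 147 to 169 CPM in the other ORX libraries, and ORX 6 was the library with fewer reads on long transcripts. Creb1 had 46.4 CPM in intact 3, against 59.0 to 62.3 CPM in the other intact libraries, and Rapgef4 had 240.002 CPM in intact 4, against 103 to 142 CPM. Akap1 had 132 CPM in intact 2, against 195 to 213 CPM, and Lhcgr 3.06 CPM in intact 2, against 0.251 to 0.909 CPM. Rapgef3 had 24.2 CPM in ORX 3, against 16.8 to 19.4 CPM. The log2 ratio of Prkar2b to Prkar1a was -1.65 in ORX 2, against -1.07 to -0.78 in the other ORX libraries.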

How the results depend on the processing

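Against 878 genes passing in the main test, 1630 passed with DESeq2 and 2056 with limma voom with sample weights, 504 with the fat score as a covariate, 94 with the medulla score as a covariate (chosen after seeing the data) and 408 to 1280 when 1 library was left out. Of the 10 genes, 3 passed in the main test. With DESeq2 and with limma voom with sample weights 4 passed each, Pde8a in addition. With 1 library left out 2 to 3 passed, with the fat score 1 (Mc2r), and with the medulla score 1 (Mrap, log2 2.29, adjusted p = 0.00676 in edgeR). The cause was not tested. With sample numbers as a replicate block, 416 genes passed, of which 351 were shared with the main test, and 3 of the 10; over the 5 same-numbered pairs the log2 ratio differences were 1.78 for Pde8b to Pde8a and -1.10 for Prkar2b to Prkar1a (exact sign-flip p = 0.0625 for both, the smallest 5 pairs allow). Same-numbered libraries correlated from -0.35 to 0.26, and 1 of 5 correlated best with its own number. The Prkar2a to Prkar1a difference ran from -0.72 to -0.36 with 1 library left out and passed unadjusted without ORX 4 (exact permutation p = 0.0476). Without intact 3 and ORX 6 together, Pde8a passed (adjusted p = 0.0336) and Prkar2b did not (0.0528). Of the named genes and ratios only Prkar1a and Creb1, neither of which passed, changed sign under an alternative run: Prkar1a (log2 0.03) was at -0.12 with the fat score, -0.073 without intact 3 and ORX 6 together and -0.10 to 0.18 with 1 library left out, and Creb1 was at 0.063 with the length trend removed (chosen after seeing the data). Depth limits what can be said of rare genes such as Mrap2.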

Other observations

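The spread of Mrap between libraries, which did not follow the groups, was set against the 105 other tested pathway genes, and so was that of Mc2r, in 210 relations chosen after the Mrap values had been seen (log2 CPM, group means subtracted, 11 libraries, exact permutation within groups). For Mrap 2 passed after Benjamini-Hochberg adjustment, and for Mc2r none did. Crem, which encodes cAMP-responsive modulators and the repressor ICER, had r = 0.96 and rho = 0.90 (exact permutation p = 9.26e-05, adjusted 0.0109). Its levels were 393, 435, 38.3, 45.2 and 164 CPM in intact 1 to 5 and 20.6 to 280.2 CPM in ORX, with r = 0.94 within intact and 0.99 within ORX. Atf4, a factor of the same leucine-zipper class, had r = 0.97 and rho = 0.97 (exact permutation p = 0.000104 and 0.000116, adjusted 0.0109), with 0.97 within intact and 0.98 within ORX. Without the 2 libraries farthest from the median of Mrap both had r = 0.95. Of the 105 pathway genes compared, Crem and Atf4 thus varied with Mrap within each group, but not they alone. Akr1b7 (r = 0.87), Gnas (0.84) and Creb3l1 (0.88) also did so in both groups and narrowly missed the threshold. Their adjusted p was 0.0681, 0.0681 and 0.0725 (exact permutation). The summed medulla markers ranked the 5 intact libraries as Mrap did. They were lowest in ORX 1 and highest in ORX 3, as Mrap was. Mrap is also in the shortest length bin, where ORX 6 was high as a whole. The part of the medulla and of transcript length in these relations was not tested.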
